A study of Mus musculus with 6 samples.

Results

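Aminoacyl-tRNA synthetases are the enzymes that load each amino acid onto its transfer RNA (tRNA), and they were followed in lung B cells from mice with severe allergic airway inflammation and from control mice. The members were chosen by symbol: a letter for the amino acid followed by ars, with both subunits of the phenylalanine enzyme (Farsa and Farsb), the fused glutamate and proline enzyme (Eprs) and the threonine enzyme Tarsl2. This gave 38 of the 21774 mRNA genes, of which the 17 with a symbol ending in 2 were taken as mitochondrial and the other 21, with Tarsl2, as cytosolic. The symbol rule used no expression value, but the members were chosen with earlier results of these data known. All 38 passed the filter on low values, which left 15759 genes in the test.

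Cells use separate sets of these enzymes for the ribosomes of the cytosol and for those of mitochondria, both encoded in the nucleus, and Gars and Kars each serve both places. Several cytosolic synthetases sit together on scaffold proteins in the multisynthetase complex, while the rest work outside it. Proliferating and antibody-secreting B cells make large amounts of protein, and many cytosolic synthetase genes are among the known targets of ATF4, the transcription factor of the integrated stress response that uncharged tRNA can trigger through the kinase GCN2.

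The libraries were 3 of B cells labelled control and 3 labelled severe asthma, all from lungs of mice labelled wild type. The severe asthma mice were given 10 μg of lipopolysaccharide (LPS) with 25 μg of house dust mite extract (HDM) into the trachea in 35 μl of saline on days 0 to 2, and HDM alone on days 7 to 14; control mice were given saline throughout. Strain, age and sex were not given in the sources used here, nor was it stated whether each library came from a single mouse, so the p-values measure the spread between these libraries, which may be technical. Over the mRNA genes the libraries held 16498219 to 18054903 reads.

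The values are the authors' library-size-adjusted signal per transcript, taken for the transcript of highest mean in each gene. Levels summed over genes are in CPM, a library's reads scaled to a common total. The B cell markers were high in every library, at 9230 to 12700 summed CPM in control and 11600 to 12600 in severe asthma, with 2 of 10 higher by the test. Markers of several other cell types moved with the groups. Of the macrophage markers 9 of 14 rose, from 797 to 1990 summed CPM in control to 6080 to 11900 in severe asthma, while 8 of 8 endothelial, 7 of 8 epithelial and 5 of 8 fibroblast and smooth muscle markers fell. Of the plasma cell markers 4 of 8 rose (500 to 592 against 834 to 1300), and 12 of 12 cell cycle genes did so too. Other lists moved less or were mixed: 1 of 7 T cell markers rose and 0 fell. Of 7 neutrophil markers 2 rose and 1 fell, and of 8 dendritic cell markers 3 rose and 2 fell. Over all genes tested, 20.7% rose and 14.4% fell. No gene of these lists was at 0 in every library of a group. In such bulk libraries, more cells of a type and more RNA per cell cannot be told apart, and the part of these cell types in the results below was not tested. Control library 1 stood apart from the other controls, with 3755 CPM of epithelial markers against 1290 and 1362 and 9235 of B cell markers against 12680 and 12020. It also had the lowest value of the 3 controls in 31 of the 38 synthetases.

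Most synthetases had somewhat higher values in severe asthma. By limma on log2(value + 1), with adjustment over all 15759 genes and a threshold of 0.05, 19 of the 38 rose and 0 fell, where 20.7% of all genes tested rose and 14.4% fell. Among the 10521 genes within the synthetases' range of mean value, 27% rose and 12.3% fell. Over the 38 the log2 fold change had a median of 0.30 (1.23-fold), against 0.06 over all genes tested and 0.12 over genes of that range of mean value, and 34 of the 38 were above 0, as were 55.8% of all genes. In 26 of the 38 every severe asthma library was above every control library (31.6% of all genes), and in 0 was every one below (21.6% of all genes). The cytosolic enzymes had 13 of 21 risen and a median of 0.31, and the mitochondrial enzymes 6 of 17 and a median of 0.25. Without control library 1 the counts were 13 and 4. Without severe asthma library 2 they were 6 and 1, and the same 6 and 1 without severe asthma library 3.

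**Figure D1:**
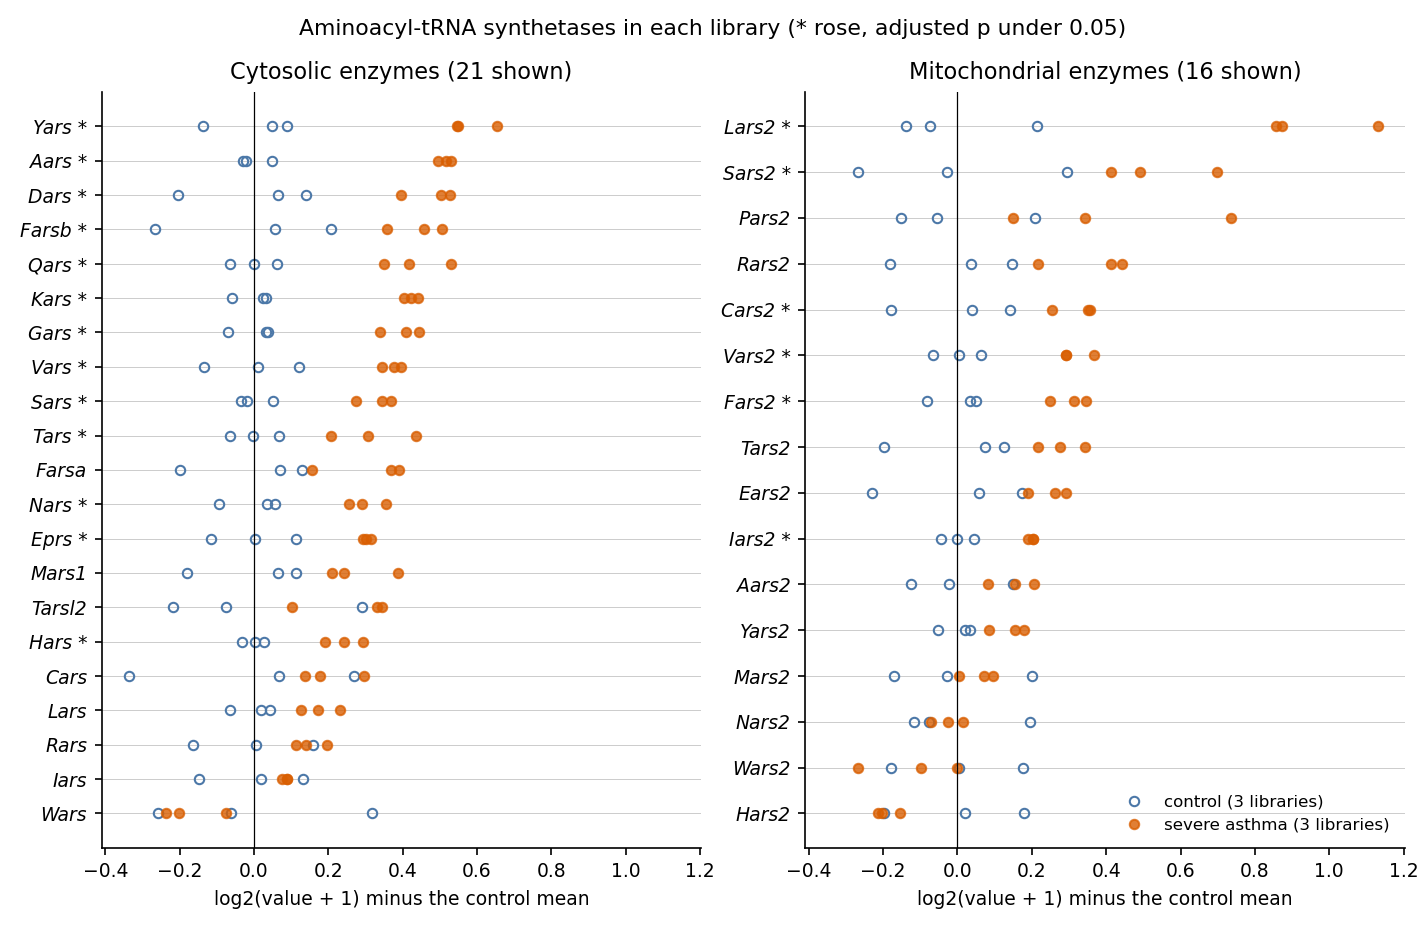
Each point is a library's log2(value + 1) minus the control mean of that gene, for the 21 cytosolic and 16 of the 17 mitochondrial enzymes, ordered by fold change; open points are the 3 control and filled points the 3 severe asthma libraries, and an asterisk marks an adjusted p under 0.05. The filled points lie right of the open ones without overlap in 26 genes, and Lars2 lies farthest to the right.

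Among the cytosolic enzymes the tyrosine enzyme Yars moved most. Its values were 509.2, 579.1 and 595.4 in the control libraries and 820.1, 817.8 and 882.1 in the severe asthma libraries. Every severe asthma library was thus above every control, and the log2 fold change was 0.58 ± 0.0878 (SE, n = 3 and 3; limma adjusted p = 0.00345). Transcripts of Yars share stretches of up to 221 bases with those of 37 other genes, so reads there may be split. Aars, the alanine enzyme, was at 1091, 1039 and 1034 in control and at 1488, 1509 and 1524 in severe asthma. The libraries of each group lay close together and the groups were well separated, with a log2 fold change of 0.51 ± 0.0628 (limma adjusted p = 0.00165). Exons of Aars overlap those of Exosc6, a subunit of the RNA exosome on the same strand, over 1326 bases, 14.3% of the Aars exon bases, so reads there cannot be assigned to either gene alone. Dars, the aspartate enzyme, was at 847.4, 1076 and 1020 against 1285, 1408 and 1385 (0.48 ± 0.1, limma adjusted p = 0.0108). Its severe asthma values were all higher, with control library 1 the lowest of all.

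The lysine enzyme Kars was at 1448, 1534 and 1542 in control and 1994, 2048 and 2023 in severe asthma (log2 fold change 0.42 ± 0.0621, limma adjusted p = 0.00313). The glycine enzyme Gars was at 1130, 1217 and 1214 against 1500, 1574 and 1613 (0.40 ± 0.068, limma adjusted p = 0.00552). Both genes supply the enzyme of the mitochondria as well as that of the cytosol, and both were higher in every severe asthma library than in any control. The glutamine enzyme Qars was at 1745, 1824 and 1903 against 2324, 2634 and 2436 (0.43 ± 0.0735, limma adjusted p = 0.00533). Sars, which charges serine and also supplies the seryl-tRNA from which selenocysteine is made, was at 1717, 1821 and 1735 against 2126, 2269 and 2232 (0.33 ± 0.0639, limma adjusted p = 0.00839). The groups of Qars and Sars were again apart. These enzymes, Yars, Aars, Kars, Gars, Qars and Sars, together with mitochondrial Lars2 were the 7 of the 19 risen genes that passed under all 17 alternative settings. The other 12 calls were each lost without severe asthma library 2 and again without severe asthma library 3.

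Valine's enzyme Vars was the most abundant synthetase by a wide margin. Per kilobase of transcript it stood at 175 CPM in control and 205 in severe asthma, against medians of 26.2 and 27.1 over the 21 cytosolic enzymes, and it held 33.4% to 35.6% of all cytosolic synthetase reads. Its adjusted values were 10770, 12840 and 11910 in control and 15000, 15340 and 15530 in severe asthma, all higher than in control (log2 fold change 0.37 ± 0.083, limma adjusted p = 0.0132). The call was lost without severe asthma library 2 or 3 and with scaling by total reads alone. Summed over the 21 cytosolic enzymes, the level was 1986, 2174 and 2159 CPM in control and 2352, 2374 and 2433 in severe asthma, which is 1.13 times higher with no overlap. Without Vars the ratio was 1.11.

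The phenylalanine enzyme is built from the products of 2 genes. Farsb, the beta subunit, rose from 718.6, 997.2 and 899 to 1106, 1227 and 1187 (log2 fold change 0.44 ± 0.121, limma adjusted p = 0.026). Farsa, the alpha subunit, was at 776.6, 975.2 and 934.9 against 993.6, 1153 and 1169 and did not pass (0.31 ± 0.109, limma adjusted p = 0.061). Both subunits were higher in every severe asthma library, but the margin for Farsa was narrow. The other risen cytosolic genes were Tars for threonine (0.32), Nars for asparagine (0.30), Eprs (0.30), which shares stretches of up to 207 bases with 87 other genes, and Hars for histidine (0.24). Each was higher in all 3 severe asthma libraries than in any control. Hars was the least secure of the cytosolic calls and was lost under 10 of the 17 alternatives.

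Of the cytosolic enzymes, 8 did not pass. Mars1, the methionine enzyme, had a log2 fold change of 0.28 (limma adjusted p = 0.0556) and Lars, the leucine enzyme, 0.18 (adjusted p = 0.0754, limma), both with groups that did not overlap. Tarsl2 (0.26), Cars for cysteine (0.20), Rars for arginine (0.15) and Iars for isoleucine (0.09) had groups that overlapped. Iars also shares a stretch of 1656 bases at 96% identity with the pseudogene Gm4849, so its reads may be split. Mars1 and Farsa passed when control library 2 was left out and when the replicate number was a block.

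Wars, the tryptophan enzyme, was the only cytosolic member with a negative log2 fold change. It was at 1928, 1480 and 1293 in control and at 1466, 1344 and 1311 in severe asthma, so that control library 1 was highest and the groups overlapped (-0.17 ± 0.141, limma adjusted p = 0.38). Wars is known as a gene that interferon gamma induces. Of 12 other genes induced by interferon gamma, 5 were higher by the test and 0 lower (20.7% and 14.4% of all genes), and the median was 0.49. These were the chemokines Cxcl9 (3.69) and Cxcl10 (1.13), the immunoproteasome subunits Psmb9 (0.63) and Psmb8 (0.58), and the peptide transporter Tap1 (0.40). Cxcl9 was near the floor in control, at 0.9738, 1 and 4.692, and varied in severe asthma, at 82.27, 47.97 and 10.88. Cxcl10 passed narrowly, with groups that overlapped (limma adjusted p = 0.0499). Irf1, the factor that carries much of this response, was at 2478, 2410 and 2236 against 2488, 1894 and 1685 (-0.25, limma adjusted p = 0.196). The interferon gamma genes were thus mixed, and Wars lay with those that did not pass.

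Cytosolic enzymes of the multisynthetase complex and those outside it showed like medians. In the complex 4 of 8 rose (Dars, Qars, Kars and Eprs; median log2 fold change 0.29), and outside it 9 of 13 (median 0.32). The scaffold genes of the complex also rose in 2 of 3 (20.7% of all genes). Aimp1 was at 582, 776.2 and 689.2 in control and 901.6, 995.8 and 971.4 in severe asthma (0.49, limma adjusted p = 0.0137), and Eef1e1 at 235.9, 331.1 and 276.9 against 368.8, 377.4 and 388.9 (0.44, adjusted p = 0.0379, limma). Aimp2 was at 231, 232.1 and 237.4 against 280, 307 and 281.8, also apart, but did not pass (0.31, limma adjusted p = 0.053). By the enzymes' fold, 9 of the 11 cytosolic class II enzymes rose (median 0.33) and 3 of the 9 of class I (median 0.20). Eprs holds a domain of each class and was counted in neither. Among the mitochondrial enzymes the order was the reverse, with 2 of 8 of class II risen (median 0.21) and 4 of 9 of class I (median 0.25). Class I and class II are the structurally unrelated families of catalytic domains into which synthetases fall. The difference between the classes was not tested.

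The promoters of the members were read from RefSeq on the GRCm38.p6 build, as 250 bases before to 50 bases after a start of the gene, and 28 of the 38 members had such a window (14 cytosolic and 14 mitochondrial). The CEBP-ATF response element, to which ATF4 binds with a partner of the C/EBP family, was searched as TGATGNAA on both strands, where N is any base. It was in the windows of 5 of the 14 cytosolic genes, Aars, Gars, Iars, Tars and Yars, in 0 of the 14 mitochondrial genes, and in 3.97% of all 32851 windows. A match of each gene is shown. Of these 5 genes 4 rose and Iars did not pass. Of all 21 cytosolic enzymes 13 rose, but only 14 of the 21 had a window, and the others were not searched. A link between the element and the rise was not tested. Each line gives 30 bases 5′ to 3′ on the strand of the gene, with the match in capitals; those of Aars, Gars, Iars and Tars are on the opposite strand, and that of Yars on the gene's own.
Aars, match at base 10 after the start, chr8:111033840-111033869, plus strand: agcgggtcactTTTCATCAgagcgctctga
Gars, match starting 30 bases before the start, chr6:55037960-55037989, plus strand: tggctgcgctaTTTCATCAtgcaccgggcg
Tars, match starting 15 bases before the start, chr15:11399655-11399684, minus strand: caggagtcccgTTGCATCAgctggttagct
Iars, match at base 8 after the start, chr13:49682126-49682155, plus strand: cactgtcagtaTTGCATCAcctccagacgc
Yars, match at base 4 after the start, chr4:129189895-129189924, plus strand: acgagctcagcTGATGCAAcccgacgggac
The matches shown lie within 30 bases of an annotated start. Aars had a further match, starting 112 bases before the start, which is not printed. The E-box CACGTG, a core to which MYC binds, was in 4 cytosolic windows (Aars, Farsb, Iars and Tars) and 1 mitochondrial window (Ears2), against 7.15% of all windows. The ETS core CCGGAAG was in 5 and 4, against 8.86%. Letters that match are a description of these windows and do not show binding.

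Among the mitochondrial enzymes, Lars2, which charges leucine, stood far from the rest. It was at 2603, 3326 and 2723 in control and at 5194, 5251 and 6275 in severe asthma. Every severe asthma library was well above every control, and the log2 fold change was 0.95 ± 0.116 (1.94-fold, limma adjusted p = 0.00163). In the authors' deposited table its q-value was 1.31e-10. Lars2 lies at chr9:123366927-123462675 on the plus strand. Per kilobase it went from 45.2 to 79.2 CPM and was second only to Vars in control, where the median of the 16 mitochondrial enzymes with a matched length was 8.75. Lars2 made up 28%, 29.9% and 27.1% of the mitochondrial synthetase reads in control and 38.6%, 38.7% and 43.5% in severe asthma.

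The last exon of Lars2 carries, beyond the coding end, a stretch of 72 bases that is 98.6% identical to a transcript of the non-coding gene Gm15564 (chr9:123462048-123462119 in Lars2), in the GENCODE transcripts. Gm15564 was at 87.4, 117 and 92 in control and 185, 191 and 236 in severe asthma in the authors' deposited table of called genes, with a log2 fold change of 1.05 there. AY036118, a non-coding gene annotated beside the copy of the ribosomal RNA precursor on chromosome 17, was at 15831, 23890 and 18017 against 49934, 66454 and 64947 in the same authors' deposited table, a log2 fold change of 1.65. Both thus stood apart between the groups in the direction of Lars2. In the same comparison AY036118 gave no stretch shared with Lars2. The other non-coding genes compared gave none either and were not among the authors' called genes. The genes compared were chosen after values were seen, and the table that holds Gm15564 and AY036118 was scaled apart from that of the mRNA. The part of reads from such shared sequence in the Lars2 result was not tested.

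Summed over the 17 mitochondrial enzymes, CPM were 572.2, 669.4 and 622.2 in control and 752.4, 735.8 and 804.6 in severe asthma, 1.23 times higher with no overlap. Without Lars2 they were 411.7, 469.5 and 453.9 against 462.1, 451.1 and 454.3. The groups then overlapped and the ratio was 1.02. On this scale the summed difference of the mitochondrial class was that of Lars2. CPM takes no account of composition, and scaling by total reads alone moved the median over all genes (log2 fold change) from 0.06 to -0.08.

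**Figure D2:**
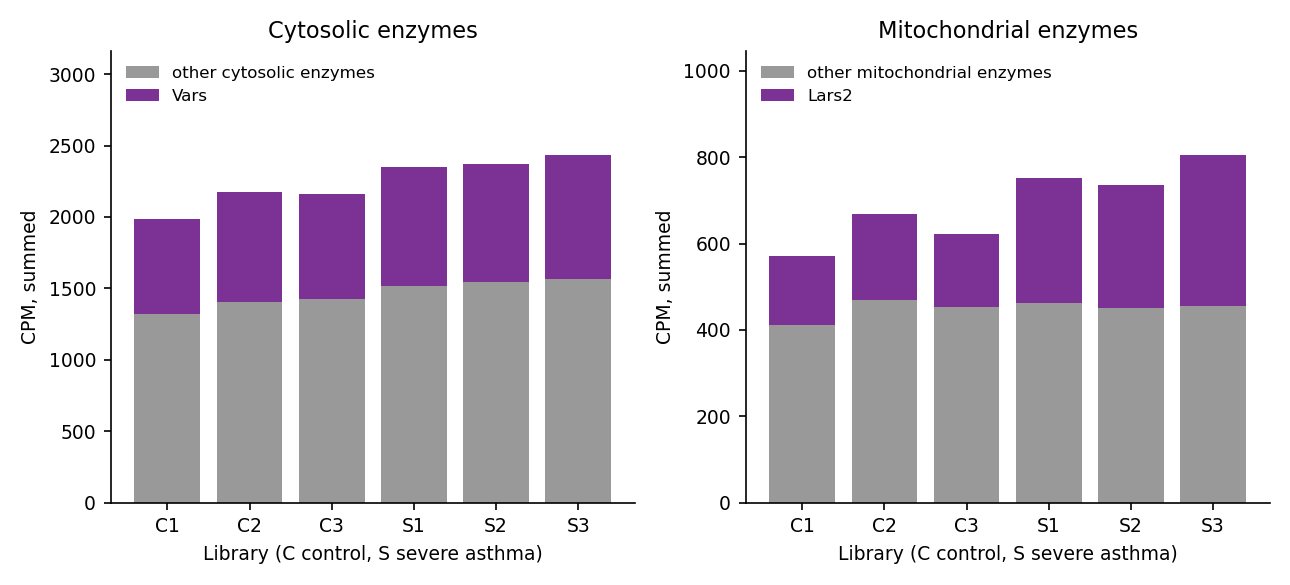
Stacked bars give the summed CPM of the cytosolic enzymes (left, with Vars set apart) and the mitochondrial enzymes (right, with Lars2 set apart) in each of the 6 libraries. The grey part of the right panel is level, at 411.7 to 469.5 in control and 451.1 to 462.1 in severe asthma, while the Lars2 part is taller in each severe asthma library.

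The other risen mitochondrial enzymes were lower and their calls less firm. Sars2, for serine, was at 269.3, 398.1 and 318.3 in control and 526.5, 456.4 and 432.6 in severe asthma (log2 fold change 0.53 ± 0.154, limma adjusted p = 0.0309). Vars2, for valine, was at 534.8, 585.1 and 561.3 against 685.4, 685.6 and 722.3 (0.32 ± 0.0769, limma adjusted p = 0.0174). In both the groups were apart, with control library 1 lowest. Cars2 for cysteine (0.32, limma adjusted p = 0.0406), Fars2 for phenylalanine (0.30, limma adjusted p = 0.0403) and Iars2 for isoleucine (0.20, limma adjusted p = 0.0413) passed narrowly. Their calls were lost under 9, 12 and 13 of the 17 alternatives, and those of Fars2 and Iars2 also with the replicate number as a block. Exons of Iars2 overlap those of Rab3gap2 on the opposite strand over 22.9% of their bases, and without a statement of strand the reads there cannot be told apart.

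Of the remaining 11 mitochondrial enzymes, Pars2 for proline (0.41), Rars2 for arginine (0.36), Tars2 for threonine (0.28) and Ears2 for glutamate (0.25) had the highest log2 fold changes without passing. Rars2, Tars2 and Ears2 had groups that did not overlap, as did Yars2 (0.14), while those of Pars2 did. Pars2 had the fewest reads of the class, 61 to 109 per library. Aars2 (0.15) and Mars2 (0.06) for alanine and methionine, and Nars2 (-0.03) and Wars2 (-0.12) for asparagine and tryptophan, had overlapping groups.

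Hars2, the histidine enzyme of mitochondria, had the lowest fold change of all 38. It was at 746.2, 970.2 and 868.6 in control and at 738.6, 768.7 and 744.1 in severe asthma, with control library 1 inside the severe asthma range (-0.19 ± 0.102, limma adjusted p = 0.18). It fell past the threshold without control library 1, with scaling by total reads alone, with edgeR and RLE factors and with DESeq2. Hars and Hars2 lie head to head on chromosome 18 and share 195 exon bases on opposite strands, 7.97% of the Hars and 4.56% of the Hars2 exon bases.

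Of the 18 pairs of a cytosolic and a mitochondrial enzyme for the same amino acid, the log2 ratio of the pair was compared between the groups by an exact two-sided permutation test. Eprs was paired with both Ears2 and Pars2, and Fars2 with both Farsa and Farsb, so the pairs are not all separate. With 3 libraries against 3 the smallest p this test can give is 0.1, and 8 pairs reached it. By this permutation test their adjusted p was 0.225 over the 18, so no pair could pass. How many pairs of other genes would reach the smallest p was not tested. The cytosolic enzyme gained on its partner, with no overlap between groups, in 6 pairs. They included Yars and Yars2 (difference of the log2 ratio 0.44), Hars and Hars2 (0.43), Aars and Aars2 (0.37), Nars and Nars2 (0.33), and Mars1 and Mars2 (0.22). The mitochondrial enzyme gained in the other 2 pairs. For leucine the log2 ratio of Lars to Lars2 was -1.12, -1.39 and -1.08 in control and -1.89, -1.84 and -2.2 in severe asthma, a difference of -0.78. For arginine the ratio of Rars to Rars2 was 1.61, 1.57 and 1.61 against 1.27, 1.38 and 1.52, a difference of -0.21. The valine, threonine and tryptophan pairs differed between the groups by 0.06, 0.04 and -0.05.

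**Figure D3:**
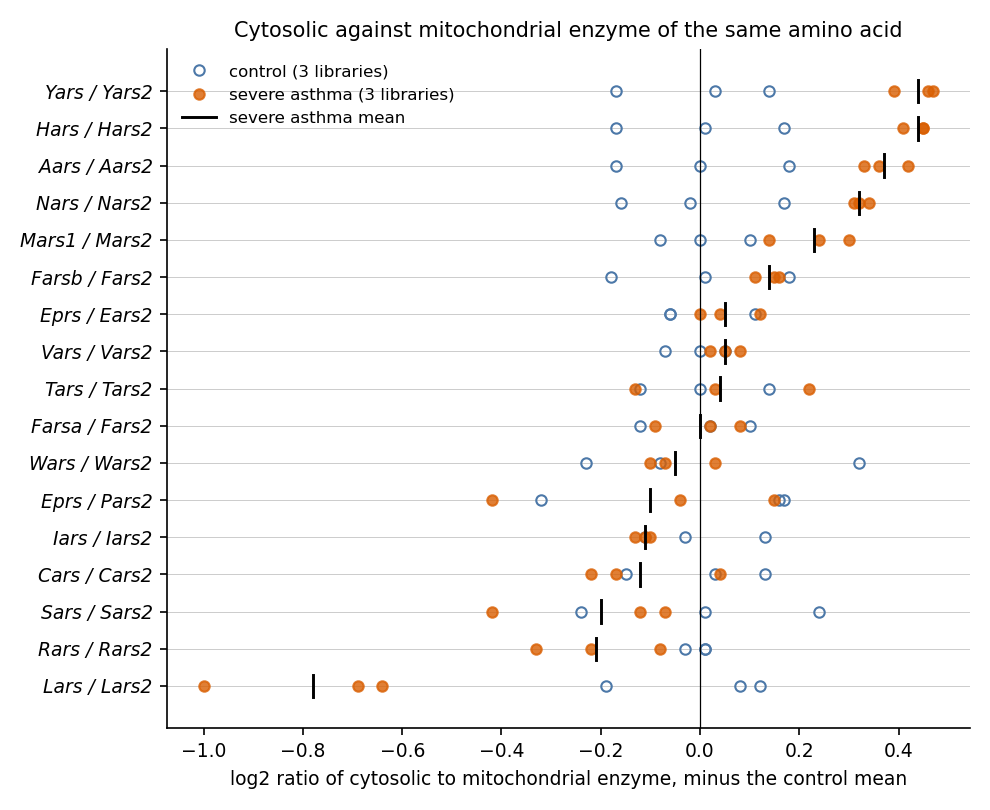
For 17 of the 18 pairs the log2 ratio of cytosolic to mitochondrial enzyme in each library is drawn relative to the control mean, with open points for control, filled points for severe asthma and a bar at the severe asthma mean. Leucine lies alone at the left, at -0.78, and tyrosine and histidine at the right, at 0.44 and 0.43.

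The other genes that handle charged tRNA were described by lists. Over all genes tested, 20.7% rose and 14.4% fell. Mitochondria have no glutamine enzyme of their own and make glutaminyl-tRNA with an amidotransferase. Its subunit Qrsl1 rose from 345.1, 421.1 and 396.6 to 560, 655.7 and 603.3 (log2 fold change 0.65, limma adjusted p = 0.00506), all severe asthma libraries being higher, whereas its partners Gatb (0.31) and Gatc (0.11) did not pass. Qrsl1 was the only riser of 5 genes in that list (median 0.11). Of 7 genes that proofread or recycle charged tRNA, 3 rose, among them the alanyl-tRNA editing gene Aarsd1 (0.44) and the peptidyl-tRNA hydrolase gene Ptrhd1 (0.69). Of 6 genes for selenocysteine, Sephs2 (0.53), Sephs1 (0.36) and Eefsec (0.25) rose. Sepsecs, which makes the final conversion on the tRNA, did not pass (-0.20).

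Genes that supply tRNA moved little. The 20 of the list cover RNA polymerase III, its factors TFIIIB and TFIIIC, its repressor Maf1 and the exporter Xpot. The test called 3 higher and 0 lower (20.7% and 14.4% of all genes), and the median was 0.08. The risers included the polymerase subunits Polr3k (0.47) and Polr3c (0.44), while the largest subunit Polr3a was at 0.01 and Xpot at 0.01. The factors that bring charged tRNA to the ribosome moved more. All 5 cytosolic elongation factor genes rose, with a median of 0.48. Eef2, which moves the ribosome along, was at 69120, 65670 and 66320 against 94640, 98710 and 98290 (0.54, limma adjusted p = 0.00255). Of 9 mitochondrial translation factors 5 rose, with a median of 0.35: Tsfm (0.59), Mtif3 (0.45), Mtif2 (0.39), Tufm (0.35) and Gfm1 (0.31).

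**Figure D4:**
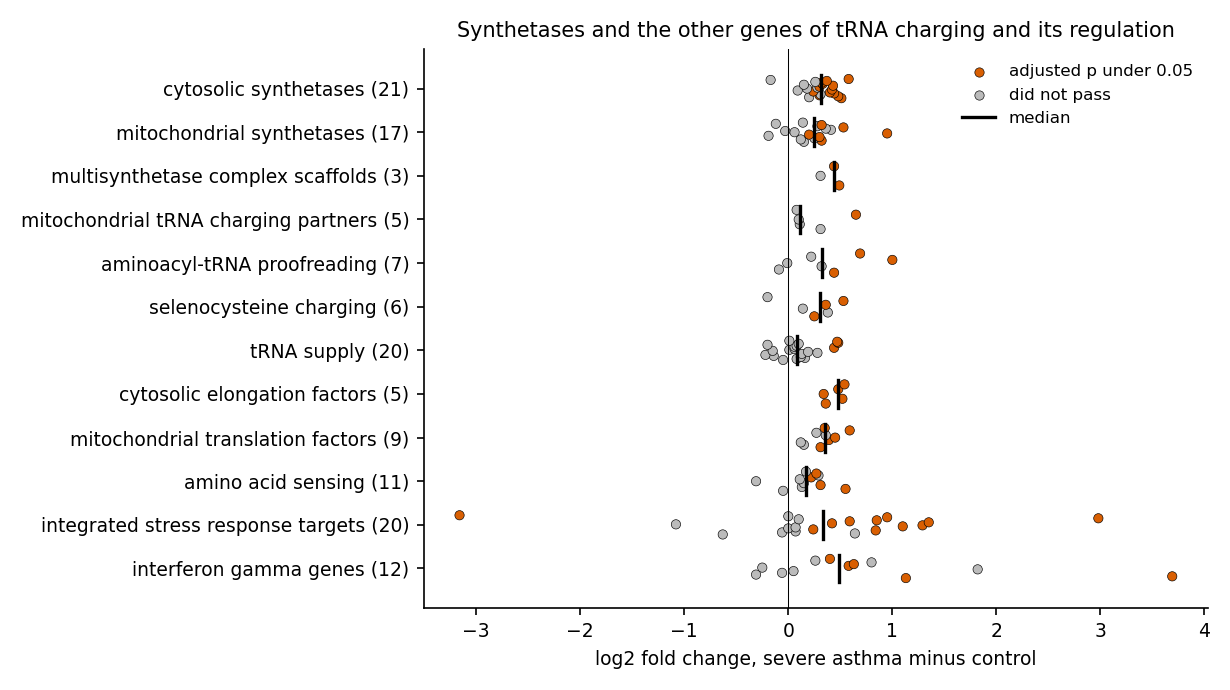
Each point is the log2 fold change of a gene, severe asthma minus control, for the synthetases and 10 lists of other genes. The lists are those of tRNA charging, translation and their regulation, and the interferon gamma genes. Points are coloured where the adjusted p was under 0.05, with a bar at the median. The medians run from 0.08 for tRNA supply to 0.49 for the interferon gamma genes, with 0.31 and 0.25 for the cytosolic and mitochondrial synthetases.

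Of 11 genes that sense amino acids 4 rose and 0 fell (20.7% and 14.4% of all genes), with a median of 0.17. Eif2ak4, which encodes GCN2, was at 1130, 1182 and 1084 in control and 1067, 1110 and 1094 in severe asthma, with overlap (-0.05, limma adjusted p = 0.57). The risers were Eif2s1, the subunit of the initiation factor that GCN2 phosphorylates (0.55), and Lamtor1 (0.31), Rragc (0.27) and Rptor (0.22), which serve the amino acid branch of the mTORC1 kinase. Atf4 itself was at 7897, 7968 and 7228 against 8510, 7217 and 6525, with overlap and no passing test (-0.06, limma adjusted p = 0.688). Atf4 is known to be controlled largely at translation, which RNA levels do not show.

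Of 20 genes counted with the integrated stress response, Atf4 among them, 10 rose and 1 fell, with a median of 0.33. Over all genes tested, 20.7% rose and 14.4% fell. The risers included the serine and folate genes Psat1 (1.35), Mthfd2 (1.29), Shmt2 (0.85), Psph (0.59) and Phgdh (0.42), and the transporters Slc7a11 (2.98) and Slc7a5 (0.95). The remaining risers were Ddit4 (1.1), Cebpb (0.84) and Cebpg (0.24). Mthfd2 was at 141.6, 146 and 182.3 in control and 370.9, 394.5 and 377 in severe asthma (limma adjusted p = 0.00092), far apart. Asns, the asparagine synthetase, was low and variable, at 63, 20.01 and 29.33 against 67.82, 43.81 and 48.61 (0.64, limma adjusted p = 0.289). Ddit3 (0.07), Atf5 (0.07), Trib3 (0.00) and Chac1 (0.00), which the response induces under stronger stress, did not pass either. Trib3, at 17 to 55.15 over the libraries, and Chac1, at 3.001 to 19.71, were also low and variable. Vldlr, a lipoprotein receptor, fell (-3.16) and was at 315.7 in control library 1 against 85.02 and 93.56 in the other controls, the library with the most epithelial, endothelial and fibroblast markers.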

How the data were processed

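RNA-seq tables from 6 mouse lung B cell libraries were used. Per the submitters' processing notes, bcl2fastq, HISAT2 2.1.0 and HTSeq 0.11.2 were used with the mm10 build; roles were not given in the sources used here. The authors deposited a library-size-adjusted signal per transcript, with log2 fold changes and p-values and q-values of their own, per the file headers. The adjusted signal could be inverted to whole reads by edgeR's quantile adjustment: 100% of 98272 values were rebuilt within 0.05. Summed CPM and the count alternatives rest on those reads.

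The design assumed counts. As the values are adjusted, limma 3.58.1 (R 4.3.3, trend, robust, two-sided) was used on log2(value + 1), leaving out genes whose mean was under 1; p-values were adjusted by Benjamini-Hochberg, at a threshold of 0.05. Fold changes are on that log2(value + 1) scale. Of each gene's transcripts that of highest mean was used. Alternatives used edgeR 4.0.16 and DESeq2 1.42.0. The members and lists were chosen with earlier results of these data known. Every member may be named, except that a few items are not reported here; of other lists, genes past the threshold or the 2 of highest mean, and others named in the text were chosen after their values were seen.

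Controls and severe asthma libraries share the numbers 1 to 3. The deviations of same-numbered libraries from their group means correlated at 0.59, 0.24 and 0.27. As all were above 0.1, the numbers were treated as pairs in an alternative fit. Libraries 2 and 3 correlated better across (0.31 and 0.34). Within a group the deviations cancel out, so these correlations depend on each other and do not show that the libraries are pairs. Exon overlaps, lengths and shared stretches (blastn 2.17.0; at least 100 bases at 95% identity, for 9 of the 38 members) came from GENCODE transcripts of the same build. Of 2977 called genes, 2976 had the same position as in RefSeq GRCm38.p6.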

Additional observations from a re-analysis of the deposited data

How the results depend on the processing

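No called value changed sign under any setting. Pseudocounts of 0.25 and 5, no filter or a filter at a mean of 10, Tarsl2 classed as mitochondrial, and Gars and Kars left out kept every count of synthetases within 1.5 times of the main one. Scaling by total reads alone moved the median of all genes from 0.06 to -0.08. It then gave 1907 genes risen and 3095 fallen (3262 and 2263 in the main fit), 8 synthetases risen and 1 fallen, 7 cytosolic and 1 mitochondrial risen, class medians of 0.16 and 0.10, and 31 risen and 8 fallen of the other listed genes, which are the pathway lists and the 12 cell cycle genes (53 and 1 in the main fit). Mitochondrial risers numbered 2 with edgeR and TMM, 2 with edgeR and RLE, 1 with DESeq2 and 2 with limma-voom; DESeq2 called 12 synthetases risen, and both edgeR with RLE and DESeq2 called 1 fallen (Hars2), with a cytosolic median of 0.22 in each. limma-voom gave 1436 genes fallen and 35 of the listed genes risen. Listed genes fallen were 2 with TMM, 5 with RLE, 5 with DESeq2 and 3 with the replicate block.

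Leaving out each library in turn gave 1573 to 3403 genes risen and 730 to 2337 fallen, 7 to 20 synthetases risen and 0 to 1 fallen, 6 to 15 cytosolic and 1 to 5 mitochondrial risen, class medians of 0.25 to 0.36 and 0.18 to 0.31, and 31 to 53 of the listed genes risen and 0 to 3 fallen. Summing over transcripts gave 12 cytosolic and 7 mitochondrial risen. With the replicate block, 15 cytosolic and 4 mitochondrial enzymes rose: Farsa and Mars1 were gained, Fars2 and Iars2 lost, and it changed no other call of a synthetase. The causes were not tested. The number of synthetases that passed moved with the scaling and test used and with the library left out. Having 3 libraries a group limits what can be seen of changes as small as these.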

Other observations

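The deposited mRNA table lists 137 transcripts for the 38 synthetases, and 27 of the genes have more than a single transcript. In the authors' deposited table the log2 fold changes of the 4 transcripts of Wars ran from -0.31 to -0.19. By the q-values of the authors' deposited table, 9 cytosolic enzymes and 1 mitochondrial enzyme, Lars2, were under 0.05 for the transcript of highest mean. None of the 38 was among the 2977 genes of the authors' deposited table of called genes, which holds changes of at least 1.0 on the log2 scale.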
